A study of Homo sapiens with 30 samples.

Results

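The comparison described here is the combined effect of docosahexaenoic acid (DHA) and betacellulin (BTC) on LX2 cells, a human cell line of activated hepatic stellate cells. Its libraries were taken by their labels: the 5 libraries of the group DHA+BTC were set against the 5 libraries of the group Veh+Veh, each paired with the library of the same culture experiment, so that 10 of the 30 libraries of the series were compared. All cells were kept in DMEM with 1% fetal calf serum. Veh+Veh cells received neither agent, and DHA+BTC cells received DHA at 50 µM and BTC at 20 ng/ml. DHA+Veh cells received the same DHA alone, Veh+BTC cells the same BTC alone, and OLA+BTC cells oleic acid at 50 µM with the same BTC. The sixth group, OLA+Veh, entered the fit only. The labels disagree on timing: the treatment field of a DHA+BTC library gives 72 h, whereas the protocol gives 96 h of fatty acid on cells seeded at 40000 per well, followed by 72 h of BTC. The fatty acids were carried on bovine serum albumin. The labels of the vehicle groups name none, and whether those cells received albumin is not given. All libraries come from 1 cell line, so the p-values measure the spread between cultures of that line and not between people. LX2 is an immortal line grown on plastic and is already activated before treatment. Replicate numbers are experiment numbers throughout.

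Hepatic stellate cells store retinoids in the healthy liver and, once activated, become contractile cells that deposit the collagen of liver fibrosis. BTC is a growth factor of the epidermal growth factor family that binds the receptors EGFR and ERBB4, whose signal runs through the kinase ERK. DHA is a long, highly unsaturated omega-3 fatty acid that can activate the nuclear receptors of the PPAR family and lower the activity of the SREBP factors, which drive the genes of sterol and fatty acid synthesis. NF-kB drives many chemokine genes, and the cofactors YAP and TAZ with their TEAD partners drive genes such as CCN2 that respond to cell tension.

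Levels are counts per 1000000 reads (CPM) from a kit that reads the 3′ end of messenger RNA, so that a level follows transcript number and not transcript length. Differences are of log2(CPM + 1), DHA+BTC minus Veh+Veh, given as estimate ± SE from limma, and a gene was called at a Benjamini-Hochberg adjusted p under 0.05 over 15137 genes tested. The 30 libraries held 1245182 to 9490142 reads, and DHA+BTC replicates 5 and 4 were 2 of the 3 shallowest. Total reads averaged 2817618 in DHA+BTC and 4762887 in Veh+Veh (exact two-sided sign-flip permutation p = 0.25, adjusted p = 0.3125 over 5 measures). The 10 most abundant genes took 9.69% of reads in DHA+BTC and 7.57% in Veh+Veh, higher in 5 of 5 experiments, at p = 0.0625 in the exact permutation test (adjusted p = 0.3125), the smallest p that 5 pairs allow; its part in the results was not tested. Of 10 stellate or mesenchymal markers 8 were tested, and the 10 together summed to 3200 to 4935 CPM in DHA+BTC and 4173 to 5191 CPM in Veh+Veh. Of the 8 tested, 2 fell, COL1A2 and ACTA2, against 2.07% of all genes tested called lower; 0 rose, 1 had a positive difference and the median difference was -0.73, or -0.56 after median-of-ratios scaling. LRAT, the retinol esterifying enzyme of quiescent stellate cells, had no read in either group. The 10 epithelial markers summed to 152 to 319 CPM in DHA+BTC and 167 to 796 CPM in Veh+Veh, the leukocyte markers to 16.4 to 83.5 and 14.8 to 68.9 CPM, the endothelial markers to 10.7 to 24.3 and 10.2 to 18.0 CPM, and the hepatocyte markers to 1.61 to 17.8 and 3.91 to 18.0 CPM. ESRP1, CD3E, MS4A1, CLEC14A, STAB2, LYVE1, TTR and FGB had no read in the 10 libraries. In bulk RNA, fewer cells of a kind and less RNA per cell cannot be told apart.

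Of the 15137 genes tested, 440 (2.91%) were called between DHA+BTC and Veh+Veh: 127 were higher (0.839%) and 313 lower (2.07%) with both agents. The counts given below for gene lists stand against these shares of all genes tested. No list was tested as a set, so 1 or 2 calls in a list are no result about that list. Among the genes that rose most were ANGPTL4, CXCL8, TFPI2, MMP1, CXCL1 and STC1, and among those that fell most were MATN2, CPA4, OXTR, CCN2 and COL1A2. Of the called genes, 382 differed in the same direction in 5 of 5 experiments, as did 2099 of all 15137 genes tested. The calls rest on the same paired values, so a shared direction among them is no separate test. A difference of at least 1 on the log2 scale was seen in 324 called genes (109 higher and 215 lower). The CPM of the groups did not overlap for 102 of all genes tested (0.674%), of which 51 were among the called genes. The falls include 36 genes with no read in DHA+BTC replicates 4 and 5, where 3 reads stand for up to 2.41 CPM. The median difference of all genes tested was -0.18. After median-of-ratios scaling that median was -0.04 and the split of calls was 189 higher of 376, against 127 higher of 440 on the CPM scale. Called genes numbered 161 higher of 266 in edgeR and 273 higher of 463 in DESeq2, both on the whole reads recovered from the CPM values.

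**Figure D1:**
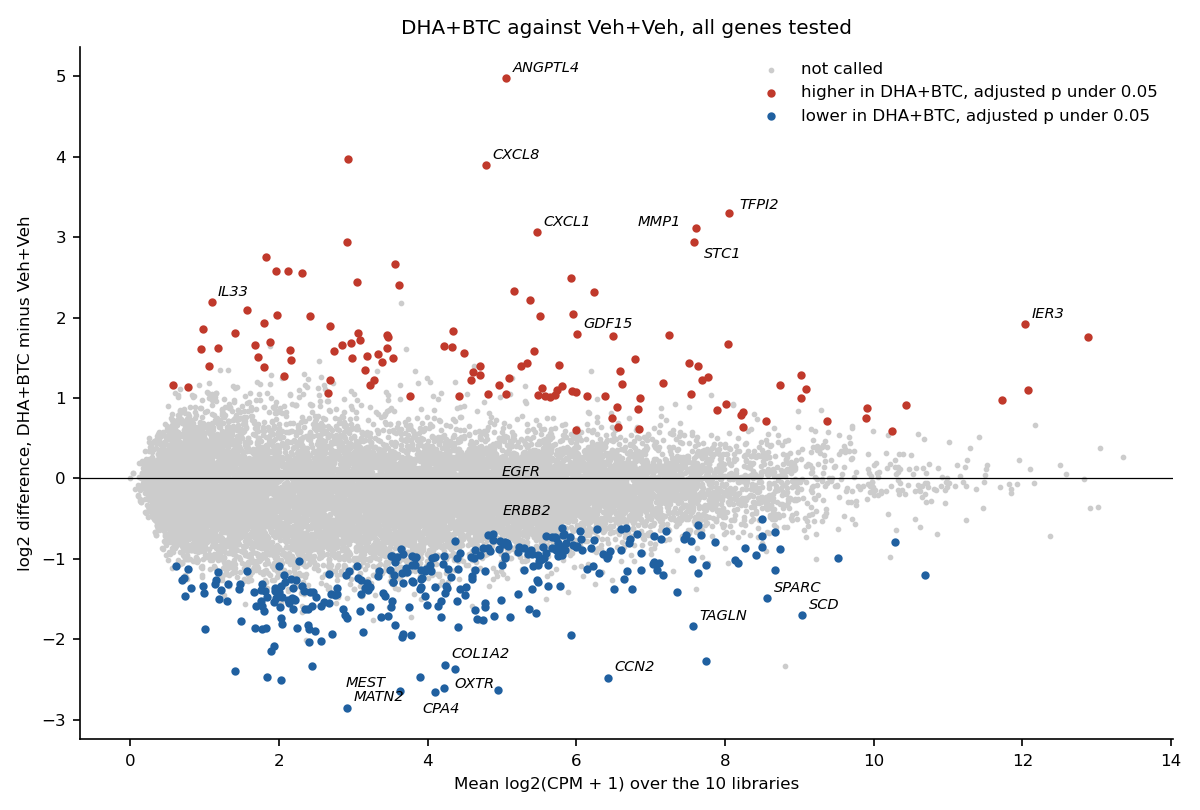
Each point is 1 of the 15137 genes tested, placed by its mean log2(CPM + 1) over the 10 libraries (x axis) and its log2 difference between DHA+BTC and Veh+Veh (y axis). Red points mark the 127 genes called higher and blue points the 313 called lower at adjusted p under 0.05 (limma). ANGPTL4 stands highest at 4.97, and the called falls reach -2.85 for MATN2.

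The number of calls depended on the libraries used. Without DHA+BTC replicate 4, DHA+BTC replicate 5 and DHA+Veh replicate 5, the shallowest, 91 genes were called, 45 of them higher, and 85 of these 91 were among the 440. Without experiment 3, 4 or 5 the counts were 110, 158 and 149. Leaving out a single library gave 819 calls without DHA+BTC replicate 1, 258 without DHA+BTC replicate 4, 182 without DHA+BTC replicate 5, and 256, 254 and 178 without Veh+Veh replicates 3, 4 and 5. With every library thinned to the same number of reads, 268 genes were called, of which 241 were among the 440. The 440 genes kept the direction of their difference in each of these subsets for which it was counted: without the 3 shallowest libraries, without experiment 3, 4 or 5, and at equal depth. They were called on the full set, and the subsets reuse most or all of its libraries. A kept direction was therefore close to fixed in advance and is no separate test. When experiments were not paired, the fit called 4 genes, ANGPTL4, IL33 and SERPINB9 among them.

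**Figure D2:**
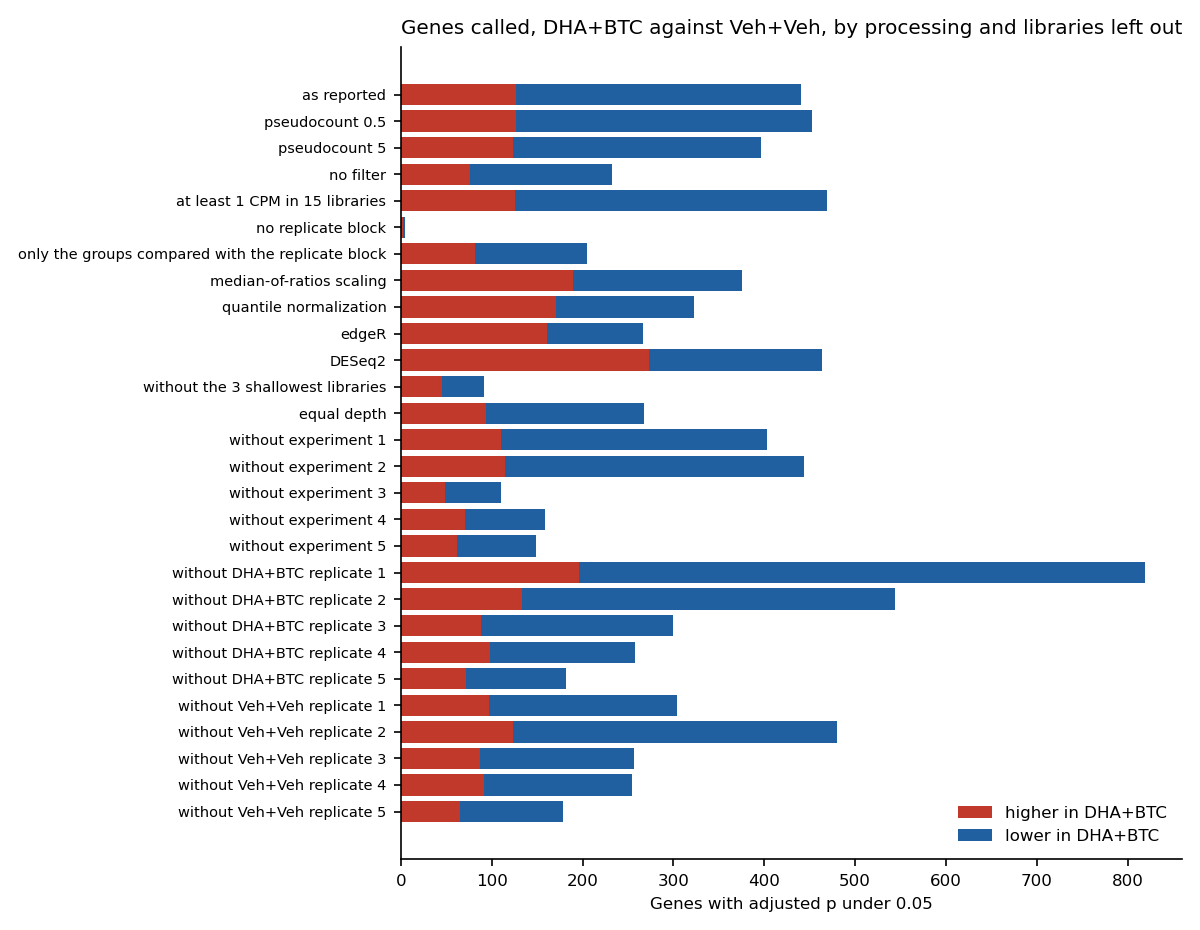
The bars give the number of genes with adjusted p under 0.05 between DHA+BTC and Veh+Veh (x axis) for each processing choice or set of libraries (y axis), split into genes higher (red) and lower (blue) in DHA+BTC. The counts run from 4 without the experiment block to 819 without DHA+BTC replicate 1, against 440 as reported.

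Of the receptors that BTC binds, EGFR had reads in each of the 10 libraries and ERBB4 in none. EGFR, the main receptor for BTC, stood in experiments 1 to 5 at 64.8, 41.2, 18.7, 15.8 and 28.5 CPM in Veh+Veh and at 66.7, 64.4, 19.5, 6.24 and 34.5 CPM in DHA+BTC. The ranges overlapped and experiment 4 held the lowest library of each group. The difference was -0.04 ± 0.25 (adjusted p = 0.947), and its sign was positive after median-of-ratios scaling (0.12) and quantile normalization (0.16), so that no direction is given. ERBB2, a co-receptor that binds no ligand of its own, stood at 31.0, 36.8, 37.7, 35.4 and 36.2 CPM in Veh+Veh and at 23.8, 33.4, 22.0, 19.6 and 24.1 CPM in DHA+BTC. It was lower with both agents in 5 of 5 experiments, with overlapping ranges, but its difference of -0.53 ± 0.22 was not called (adjusted p = 0.212). Of 14 ErbB receptors and ligands, 8 were tested and 0 were called; their median difference was -0.02, and 0.10 after median-of-ratios scaling.

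Among 23 genes induced by ERK or feeding back on it, 2 rose, 0 fell and the median difference was 0.23. With DHA alone 2 of the 23 were called higher and 0 lower (median 0.16), and with BTC alone 0 were called (median -0.04). IER3, an immediate early gene that limits apoptosis, was among the most abundant called genes at 2733, 1609, 1961, 3016 and 1801 CPM in Veh+Veh and at 8284, 2867, 6329.9, 15156 and 16110.1 CPM in DHA+BTC. The ranges overlapped by a narrow margin, since the DHA+BTC library of experiment 2 lay below the highest vehicle library. IER3 differed by 1.92 ± 0.28 (adjusted p = 0.000136). With DHA alone IER3 stood at 10384, 2782, 4749, 12112.5 and 16608 CPM, and with BTC alone at 5610, 988, 1552, 2913 and 3678 CPM. PHLDA1, an early-response gene induced by growth factors, stood at 274, 98.0, 54.5, 64.3 and 80.4 CPM in Veh+Veh and at 346, 284, 110.4, 117 and 366 CPM in DHA+BTC. It was higher in every experiment by 1.18 ± 0.23 (adjusted p = 0.00279), and the call ended without experiment 5 (adjusted p = 0.0633) and with the 3 shallowest libraries left out (adjusted p = 0.0502). With DHA alone PHLDA1 stood at 294, 277, 114, 146 and 288 CPM, and with BTC alone at 225, 140, 42.0, 75.2 and 165 CPM.

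ANGPTL4, a secreted inhibitor of lipoprotein lipase and a PPAR target, had the largest difference of all genes tested. Its level in experiments 1 to 5 was 6.53, 1.37, 2.33, 13.5 and 7.70 CPM in Veh+Veh and 83.7, 272, 109.8, 143 and 620.0 CPM in DHA+BTC. The lowest DHA+BTC library stood above the highest vehicle library, and experiment 5 was the highest. ANGPTL4 rose by 4.97 ± 0.45 (adjusted p = 5.85e-08), which is 31.4-fold on the scale of CPM + 1. Of 19 genes of fatty acid oxidation and PPAR targets tested, 1 rose and 1 fell, with a median difference of -0.16, and 0.02 after median-of-ratios scaling. The number that fell was 0 after median-of-ratios scaling, in edgeR, in DESeq2 and without the 3 shallowest libraries. The number that rose was 3, 1, 3 and 1 in the same order. CPT1A, which admits long-chain fatty acids to mitochondria, was higher in 5 of 5 experiments, at 269, 300.4, 168, 213 and 433 CPM in Veh+Veh and 397, 551, 293, 242 and 675 CPM in DHA+BTC, but was not called at 0.61 ± 0.21 (adjusted p = 0.104). It was called after median-of-ratios scaling (adjusted p = 0.0488) and in DESeq2 (adjusted p = 0.0177). PLIN2, a coat protein of lipid droplets, stood at 105, 92.8, 128, 131 and 162 CPM in Veh+Veh and at 411, 401, 157, 243 and 544 CPM in DHA+BTC. Only the DHA+BTC library of experiment 3 lay within the vehicle range. PLIN2 rose by 1.40 ± 0.28 (adjusted p = 0.00416), a call that was lost with the 3 shallowest libraries left out (adjusted p = 0.0568). It was the only rise among 14 lipid droplet and triglyceride genes tested, of which 1 fell. The number of these that fell was 0 after median-of-ratios scaling, in edgeR, in DESeq2 and without the 3 shallowest libraries.

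Of 24 genes of cholesterol synthesis and uptake tested, 9 fell, 0 rose and 0 had a positive difference; the median was -0.73, and the number that fell was 3 after median-of-ratios scaling, 3 in edgeR and 2 without the 3 shallowest libraries. ACAT2, the thiolase at the first step of cholesterol synthesis, stood at 1223, 1279, 932, 1014 and 786 CPM in Veh+Veh and at 727, 702, 494, 572 and 259 CPM in DHA+BTC. All DHA+BTC libraries lay below all vehicle libraries, and ACAT2 fell by 0.99 ± 0.20 on the log2 scale (adjusted p = 0.0053). The ACAT2 call ended without experiment 5 (adjusted p = 0.0607) and with the 3 shallowest libraries left out (adjusted p = 0.0883). Of 21 genes of fatty acid synthesis and desaturation, 3 fell and 0 rose (median -0.45). The number that fell was 2 after median-of-ratios scaling, 3 in DESeq2, 1 in edgeR and 2 without the 3 shallowest libraries. SCD, the desaturase that makes oleic acid from stearic acid, stood at 1475, 1140.3, 549, 688 and 1211 CPM in Veh+Veh and at 555, 452, 189, 287 and 156 CPM in DHA+BTC. Every DHA+BTC library was below its paired vehicle library, although the range of DHA+BTC reached just into that of Veh+Veh in experiment 1. SCD fell by 1.70 ± 0.28 on the log2 scale (adjusted p = 0.000632). Of 11 LXR targets and sterol efflux genes, 0 were called.

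**Figure D3:**
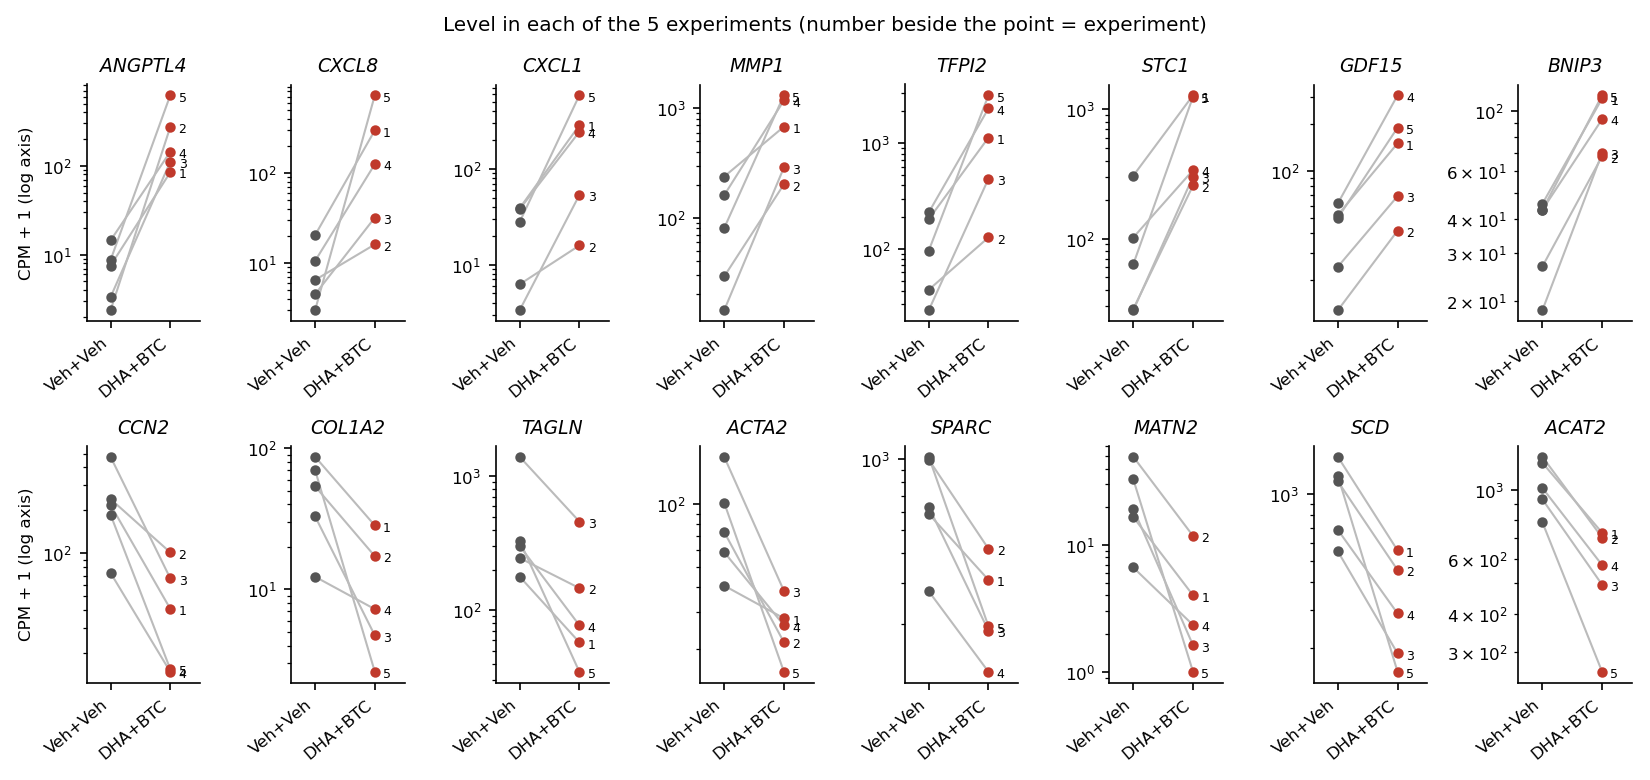
Each panel shows the CPM + 1 (log axis) of 1 gene in the 5 Veh+Veh libraries (grey) and the 5 DHA+BTC libraries (red), with a line joining the libraries of an experiment and the experiment's number beside the red point. The top row holds genes that rose and the bottom row genes that fell, each in 5 of 5 experiments; in ANGPTL4, BNIP3, ACTA2 and ACAT2 the groups do not overlap.

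Cytokines, chemokines and NF-kB targets held the most rises of any list. Of 30 tested, 17 rose and 1 fell, 26 had a positive difference, and the median was 1.37, against -0.18 over all genes tested. The counts were 18 and 1 after median-of-ratios scaling, 17 and 1 in edgeR, and 4 and 1 without the 3 shallowest libraries, where the median was 1.06. CXCL8, the neutrophil attractant interleukin-8, stood at 19.4, 5.49, 3.50, 9.55 and 2.00 CPM in Veh+Veh and at 295, 15.1, 30.9, 124 and 724 CPM in DHA+BTC. Experiment 2 gave the smallest rise and experiment 5 the largest, and the ranges overlapped only between DHA+BTC of experiment 2 and the vehicle library of experiment 1. CXCL8 rose by 3.90 ± 0.64 (adjusted p = 0.000632). CXCL1, a ligand of the same receptor CXCR2, stood at 37.7, 5.22, 2.33, 36.9 and 26.8 CPM in Veh+Veh and at 284, 14.8, 52.3, 242 and 585 CPM in DHA+BTC. Its lowest DHA+BTC library, experiment 2, lay within the vehicle range, and the rise was 3.06 ± 0.54 (adjusted p = 0.00108). CXCL1 has close paralogs, and how reads matching several of them were counted is not given in the sources used here.

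ICAM1, the endothelial and stromal adhesion molecule for leukocytes, stood at 33.1, 10.7, 12.1, 35.8 and 47.1 CPM in Veh+Veh and at 91.6, 30.7, 50.1, 79.8 and 108 CPM in DHA+BTC. The groups overlapped through experiment 2, and ICAM1 rose by 1.43 ± 0.26 (adjusted p = 0.00139). IL33, an alarmin of the interleukin-1 family, had no read in the 23814433 reads of the Veh+Veh libraries, which allows up to 0.126 CPM, and stood at 6.56, 2.70, 0, 5.79 and 9.64 CPM in DHA+BTC. Its 59 reads in DHA+BTC came to 4.19 CPM over the group, at least 33.2-fold higher than that limit, and 1 of 5 DHA+BTC libraries, experiment 3, had none. IL33 was called at adjusted p = 0.000632. CXCL12, the CXCR4 ligand that retains leukocyte progenitors in their niche, was the only member that fell. It stood at 186, 269.7, 83.3, 83.1 and 245 CPM in Veh+Veh and at 70.5, 153, 44.8, 38.3 and 57.8 CPM in DHA+BTC, lower in every pair with overlapping ranges. Its difference was -1.25 ± 0.19 (adjusted p = 0.000217). Of 22 interferon-induced genes, 0 rose and 1 fell, and the median was -0.04, or 0.11 after median-of-ratios scaling. After that scaling and in edgeR 1 rose and 0 fell, and without the 3 shallowest libraries 0 were called.

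The promoters of CXCL1 and CXCL8 are shown because both rose and both hold an NF-kB motif. They are the 250 bases before the start of the gene in RefSeq (GRCh38.p14), read along the gene's strand, with matches to GGNNTTTCC, searched on both strands, in capitals. The CXCL1 promoter is chr4:73869143-73869392 (plus strand), with matches that begin 78 and 53 bases before the start, and the CXCL8 promoter is chr4:73740319-73740568 (plus strand), with a match 91 bases before it.
CXCL1: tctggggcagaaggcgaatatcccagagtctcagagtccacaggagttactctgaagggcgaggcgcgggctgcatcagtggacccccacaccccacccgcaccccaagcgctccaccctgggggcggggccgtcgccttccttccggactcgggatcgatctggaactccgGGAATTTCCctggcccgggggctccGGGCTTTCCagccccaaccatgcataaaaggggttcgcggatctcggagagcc
CXCL8: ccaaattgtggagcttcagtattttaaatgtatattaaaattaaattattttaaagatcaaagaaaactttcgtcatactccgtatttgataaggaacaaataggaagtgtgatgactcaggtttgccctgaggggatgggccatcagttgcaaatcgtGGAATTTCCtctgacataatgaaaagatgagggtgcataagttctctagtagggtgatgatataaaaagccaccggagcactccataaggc
Of the 30 list members tested, 25 had a promoter in the table and 16 of these held a match. Among the 18 called members 16 had a promoter and 7 held a match, a smaller share than in the list as a whole. Of all 27305 promoters, 5.48% held a match. The list was assembled with NF-kB targets in mind, so these shares describe the list and are no test, and a match shows letters only.

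Of 20 matrix proteases and inhibitors tested, 5 rose and 1 fell (median 0.35), and without the 3 shallowest libraries 2 rose and 0 fell. MMP1, the collagenase that opens fibrillar collagen, stood at 237, 28.0, 13.2, 159.5 and 79.3 CPM in Veh+Veh and at 679.7, 201, 287, 1182 and 1318 CPM in DHA+BTC. Its paired libraries rose in each experiment, and the DHA+BTC library of experiment 2 lay below the vehicle library of experiment 1. MMP1 rose by 3.12 ± 0.39 (adjusted p = 1.75e-05). TFPI2, a secreted inhibitor of plasmin and other serine proteases, stood at 190.2, 40.1, 25.3, 221 and 95.3 CPM in Veh+Veh and at 1131, 128, 461, 2137 and 2845 CPM in DHA+BTC. Experiment 2 overlapped the vehicle range, and the rise was 3.30 ± 0.42 (adjusted p = 2.99e-05). TIMP1, an inhibitor of matrix metalloproteinases, stood at 333, 187, 561, 649.7 and 303 CPM in Veh+Veh and at 604, 255, 1118, 1554 and 1246 CPM in DHA+BTC. The TIMP1 rise of 1.12 ± 0.22 was called (adjusted p = 0.00405), with overlapping ranges, but not without experiment 5 (adjusted p = 0.0584) nor with the 3 shallowest libraries left out (adjusted p = 0.145).

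Of 18 collagens tested, 1 rose and 2 fell (median -0.47). COL1A2, the alpha-2 chain of type I collagen, stood at 86.0, 52.7, 31.9, 11.3 and 69.0 CPM in Veh+Veh and at 27.3, 16.2, 3.71, 6.24 and 1.61 CPM in DHA+BTC. All pairs fell, most in experiment 5, and the ranges overlapped through the low vehicle library of experiment 4. COL1A2 differed by -2.32 ± 0.42 (adjusted p = 0.00151). COL1A1, the partner chain, stood at 1053, 2052, 587, 333 and 1515 CPM in Veh+Veh and at 530.1, 1328, 298, 233 and 1504 CPM in DHA+BTC. It was lower in 5 of 5 experiments, by the least in experiment 5, and was not called at -0.62 ± 0.23 (adjusted p = 0.132). COL3A1, the chain of type III collagen, differed by -0.94 ± 0.27 and missed the threshold (adjusted p = 0.0514); it was called in DESeq2 (adjusted p = 0.047). Without DHA+BTC replicate 1, Veh+Veh replicate 2 or Veh+Veh replicate 4, COL3A1 was called (adjusted p = 0.0332, 0.0486 and 0.0305).

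Of 29 matrix glycoproteins and crosslinking enzymes tested, 4 fell and 1 rose (median -0.39). MATN2, a matrilin of filamentous matrix networks, had the most negative difference of all called genes. It stood at 15.6, 48.6, 18.3, 5.64 and 31.9 CPM in Veh+Veh and at 3.01, 10.8, 0.619, 1.34 and 0 CPM in DHA+BTC. DHA+BTC of experiment 2 was the only library of its group within the vehicle range, and experiment 5 had no read. MATN2 differed by -2.85 ± 0.38 (adjusted p = 6.06e-05). SPARC, a collagen-binding matricellular protein, stood at 586, 996, 627, 275 and 1024 CPM in Veh+Veh and at 307, 417, 187, 125 and 195 CPM in DHA+BTC. All SPARC pairs fell with overlapping ranges, and the difference was -1.49 ± 0.24 (adjusted p = 0.000551). THBS1, a matricellular protein that releases latent TGF-beta, stood at 39.6, 37.4, 37.4, 9.55 and 22.0 CPM in Veh+Veh and at 12.8, 23.5, 8.04, 4.46 and 0 CPM in DHA+BTC; it differed by -1.95 ± 0.38 (adjusted p = 0.00291). The THBS1 groups overlapped, and the call ended without experiment 3 (adjusted p = 0.0521).

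Genes of contraction and stellate activation fell or did not pass the test. Of 19 tested, 8 fell, 0 rose and 0 had a positive difference (median -0.87), and the number that fell was 4 after median-of-ratios scaling, 3 in edgeR and 3 without the 3 shallowest libraries. ACTA2, smooth muscle actin and the usual marker of activated stellate cells, stood at 39.4, 72.5, 169, 57.7 and 101 CPM in Veh+Veh and at 27.1, 20.5, 37.1, 25.0 and 14.5 CPM in DHA+BTC. The highest DHA+BTC library, experiment 3, stayed below the lowest vehicle library, experiment 1. ACTA2 differed by -1.67 ± 0.33 (adjusted p = 0.00389), and the call ended without experiment 3 (adjusted p = 0.0695). TAGLN, the actin-binding protein transgelin, stood at 177, 245, 1399, 302 and 329 CPM in Veh+Veh and at 56.6, 145, 459, 76.2 and 33.7 CPM in DHA+BTC. Experiment 3 was the highest in each group, so the ranges overlapped although all pairs fell. TAGLN differed by -1.84 ± 0.25 (adjusted p = 7.64e-05). CALD1, caldesmon, which restrains actomyosin, stood at 432, 475, 181, 86.0 and 74.7 CPM in Veh+Veh and at 261, 297, 80.4, 25.0 and 40.2 CPM in DHA+BTC. Experiments 1 and 2 were higher than experiments 3 to 5 in both groups, and the difference within pairs was -1.04 ± 0.19 (adjusted p = 0.00151). Of 9 quiescence and retinoid genes tested, 0 rose and 1 fell, and 0 fell without the 3 shallowest libraries.

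Targets of YAP and TEAD had the lowest median of the lists, -0.96, with 5 of 19 called lower and 0 higher, and 3 lower without the 3 shallowest libraries. CCN2, the connective tissue growth factor, stood at 218, 239, 474, 72.1 and 186 CPM in Veh+Veh and at 39.9, 101, 65.9, 13.8 and 14.5 CPM in DHA+BTC. The DHA+BTC library of experiment 2 was above the vehicle library of experiment 4, and the groups otherwise stood apart. CCN2 differed by -2.48 ± 0.27 (adjusted p = 1.79e-06), the smallest adjusted p among the falls named here. ANKRD1, a nuclear ankyrin-repeat protein induced by tension, stood at 18.8, 54.4, 42.0, 7.38 and 22.8 CPM in Veh+Veh and at 3.28, 13.5, 12.4, 0 and 12.8 CPM in DHA+BTC. Its ranges overlapped, and the difference was -1.94 ± 0.35 (adjusted p = 0.00161). AJUBA, a LIM-domain protein of cell junctions, stood at 64.1, 109.6, 75.1, 33.2 and 89.3 CPM in Veh+Veh and at 23.2, 34.2, 21.0, 18.7 and 50.6 CPM in DHA+BTC. AJUBA was lower in every experiment, with overlapping ranges and a difference of -1.29 ± 0.24 (adjusted p = 0.00193). Of 23 TGF-beta ligands, receptors and targets, 2 rose and 1, CCN2 itself, fell, and 0 rose without the 3 shallowest libraries. INHBA, the subunit of activin A, was 1 of the rises at 74.0, 39.8, 24.1, 13.2 and 7.70 CPM in Veh+Veh and 247, 70.1, 43.6, 33.4 and 85.9 CPM in DHA+BTC; it rose by 1.59 ± 0.35 (adjusted p = 0.00957). The INHBA ranges overlapped, and the call was lost with the 3 shallowest libraries left out (adjusted p = 0.129).

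The promoters of CCN2 and ANKRD1 are shown because both fell and both hold the TEAD motif GGAATG, searched on both strands and printed in capitals. The CCN2 promoter is chr6:131951373-131951622 (minus strand) with matches 169, 104 and 95 bases before the start, and the ANKRD1 promoter is chr10:90921088-90921337 (minus strand) with matches 220 and 128 bases before it. Both are RefSeq sequence (GRCh38.p14), read along the gene's strand.
CCN2: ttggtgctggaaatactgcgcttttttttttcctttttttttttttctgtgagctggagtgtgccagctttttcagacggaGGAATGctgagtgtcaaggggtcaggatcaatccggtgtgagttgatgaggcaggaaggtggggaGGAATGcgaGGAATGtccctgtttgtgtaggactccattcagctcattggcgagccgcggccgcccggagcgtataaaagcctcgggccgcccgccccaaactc
ANKRD1: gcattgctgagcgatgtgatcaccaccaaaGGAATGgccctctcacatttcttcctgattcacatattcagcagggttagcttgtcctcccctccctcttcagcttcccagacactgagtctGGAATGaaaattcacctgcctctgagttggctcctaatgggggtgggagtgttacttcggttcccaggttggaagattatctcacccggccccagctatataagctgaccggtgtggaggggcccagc
Of the 19 list members tested, 14 had a promoter in the table and 5 of these held a match, as did 2 of the 4 called members with a promoter and 11.9% of all promoters. The list was assembled from targets of YAP and TEAD, so these shares describe the list and are no test. A match shows letters only.

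**Figure D4:**
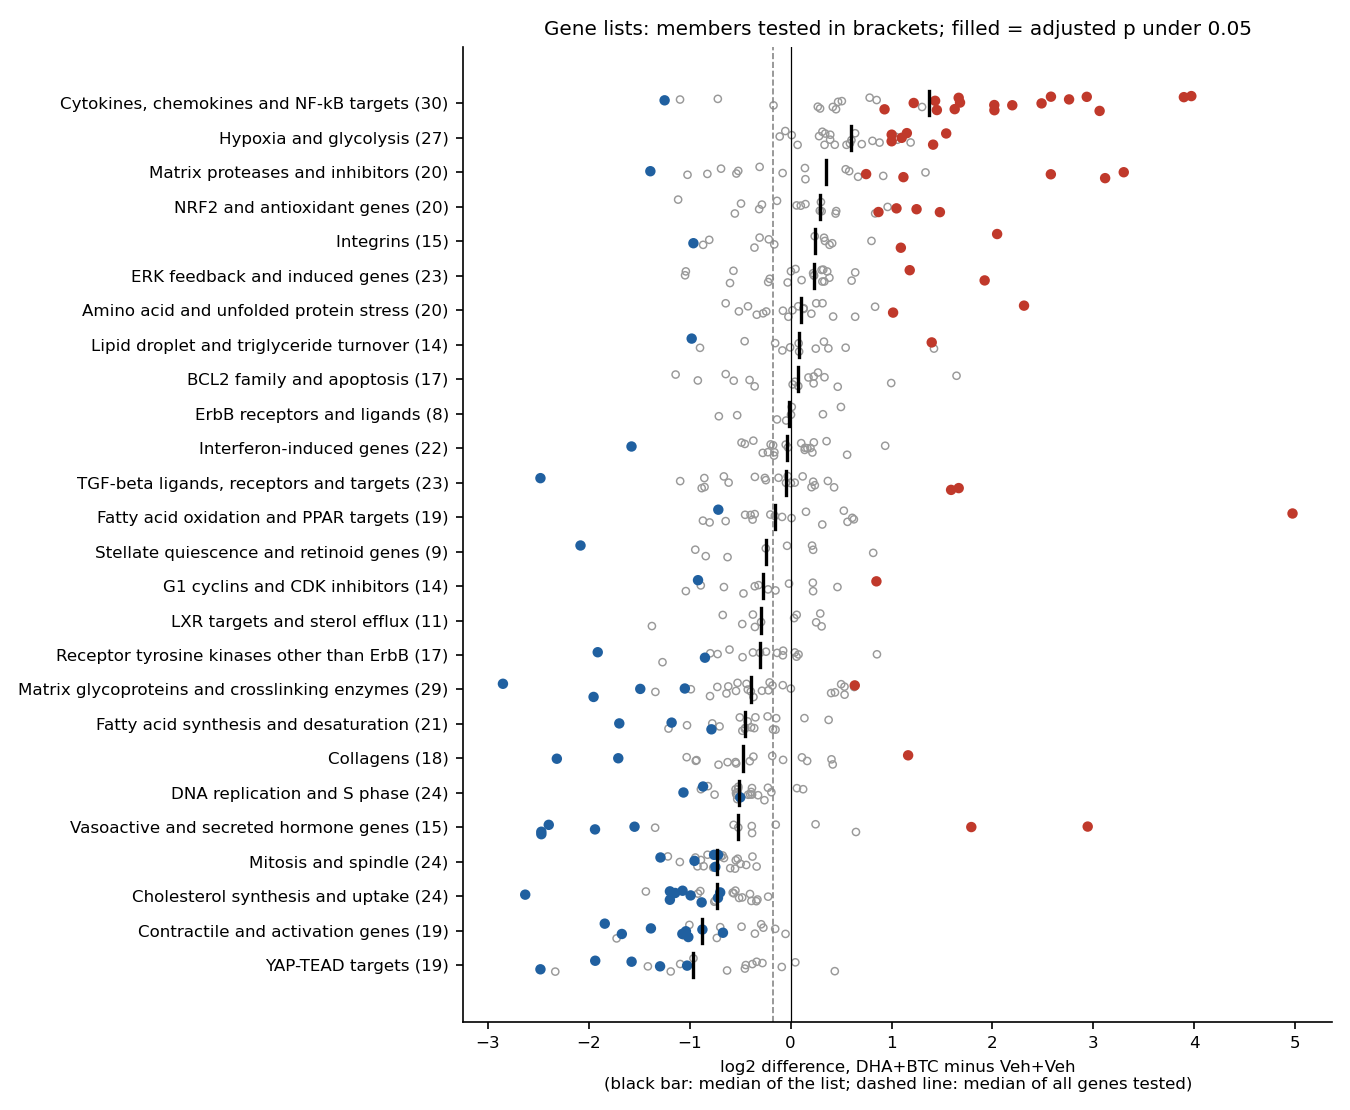
Each point is a tested member of 1 of 26 gene lists (y axis, members tested in brackets) at its log2 difference between DHA+BTC and Veh+Veh (x axis); filled points were called higher (red) or lower (blue), and open points were not called. Black bars give the list medians, which run from -0.96 for YAP-TEAD targets to 1.37 for cytokines, chemokines and NF-kB targets, and the dashed line gives the median of all genes tested, -0.18.

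Integrins, the matrix receptors of the cell, gave 2 rises and 1 fall among 15 tested. The number that fell was 0 after median-of-ratios scaling, in edgeR, in DESeq2 and without the 3 shallowest libraries, where 1 rose. ITGA2, the alpha-2 subunit of a collagen receptor, stood at 188, 33.5, 5.45, 30.4 and 19.1 CPM in Veh+Veh and at 265, 184, 39.9, 71.8 and 215 CPM in DHA+BTC. The vehicle library of experiment 1 lay within the DHA+BTC range, and all pairs rose. ITGA2 rose by 2.05 ± 0.34 (adjusted p = 0.000632). ITGA5, the alpha-5 subunit of the fibronectin receptor, stood at 40.7, 38.7, 41.6, 46.2 and 38.8 CPM in Veh+Veh and at 80.1, 54.5, 111, 114 and 100.4 CPM in DHA+BTC. The ITGA5 groups did not overlap. The rise was 1.09 ± 0.22 (adjusted p = 0.00515), and the call ended without experiment 3 (adjusted p = 0.0581), with the 3 shallowest libraries left out (adjusted p = 0.0791) and at equal depth (adjusted p = 0.0524).

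Genes of hypoxia and glycolysis gave 6 rises and 0 falls among 27 tested, and 25 had a positive difference (median 0.60). The list held 31 members, of which EGLN3 and CA9 had no read in the 10 libraries. The number that rose was 11 after median-of-ratios scaling, 9 in edgeR, 15 in DESeq2 and 3 without the 3 shallowest libraries. BNIP3, a receptor for the removal of mitochondria by autophagy, stood at 44.6, 25.8, 17.5, 42.3 and 42.2 CPM in Veh+Veh and at 110.2, 67.1, 69.0, 92.3 and 113 CPM in DHA+BTC. The BNIP3 groups did not overlap, and it rose by 1.41 ± 0.21 (adjusted p = 0.000217). ENO2, a glycolytic enolase, stood at 47.8, 48.3, 102, 116 and 127 CPM in Veh+Veh and at 161, 92.5, 152, 213 and 240.1 CPM in DHA+BTC. All ENO2 pairs rose with overlapping ranges, by 1.00 ± 0.17 (adjusted p = 0.000783). PGK1, phosphoglycerate kinase, rose by 1.00 ± 0.19 (adjusted p = 0.00295), and the call ended without experiment 3, without experiment 4 or with the 3 shallowest libraries left out (adjusted p = 0.0524, 0.0504 and 0.124). SLC2A3, a glucose transporter, rose by 1.15 ± 0.24 (adjusted p = 0.00599), and the call ended without experiment 3 (adjusted p = 0.0686).

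Of 20 NRF2 and antioxidant genes tested, 4 rose and 0 fell. After median-of-ratios scaling, in edgeR and in DESeq2 4 rose, and without the 3 shallowest libraries 0 rose. HMOX1, heme oxygenase 1, stood at 61.5, 64.5, 49.8, 85.1 and 69.6 CPM in Veh+Veh and at 95.1, 119.7, 187, 237 and 409 CPM in DHA+BTC. The HMOX1 groups did not overlap, and the rise of 1.48 ± 0.25 (adjusted p = 0.000839) was not called with the 3 shallowest libraries left out (adjusted p = 0.0612). Of 20 genes of amino acid and unfolded protein stress, 2 rose, against 0.839% of all genes tested called higher, and 0 fell. The number that rose was 3 after median-of-ratios scaling and 1 without the 3 shallowest libraries. DDIT4, an inhibitor of mTORC1, stood at 31.7, 21.1, 27.2, 38.9 and 53.9 CPM in Veh+Veh and at 132, 48.0, 68.7, 184 and 1613 CPM in DHA+BTC. The DHA+BTC library of experiment 5 was far above the other 4. DDIT4 rose by 2.31 ± 0.51 (adjusted p = 0.00957), and the call ended without DHA+BTC replicate 5 (adjusted p = 0.0611), without experiment 3 (adjusted p = 0.0524) and without experiment 4 (adjusted p = 0.0595).

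Secreted hormones and vasoactive genes went in both directions, with 2 rises and 5 falls among 15 tested and 2 falls when the 3 shallowest libraries were left out. STC1, the glycoprotein hormone stanniocalcin 1, stood at 305, 27.5, 26.9, 101 and 62.2 CPM in Veh+Veh and at 1281, 256, 300.3, 337 and 1248 CPM in DHA+BTC. Only the DHA+BTC library of experiment 1 and that of experiment 5 stood far above the vehicle range, whereas all pairs rose. STC1 rose by 2.94 ± 0.41 (adjusted p = 7.64e-05). GDF15, a stress-induced member of the TGF-beta family, stood at 51.2, 11.8, 23.3, 61.0 and 49.1 CPM in Veh+Veh and at 149.6, 40.4, 68.0, 305 and 189 CPM in DHA+BTC. Experiment 2 was lowest in both groups, the ranges overlapped, and GDF15 rose by 1.79 ± 0.29 (adjusted p = 0.000608). OXTR, the oxytocin receptor, stood at 97.2, 84.0, 57.6, 12.8 and 29.4 CPM in Veh+Veh and at 20.2, 31.0, 9.59, 0.891 and 0.803 CPM in DHA+BTC. Both low vehicle libraries, experiments 4 and 5, were paired with DHA+BTC libraries below 1 CPM, and the difference was -2.61 ± 0.40 (adjusted p = 0.000274). APLN, the peptide hormone apelin, stood at 21.5, 24.7, 77.0, 42.1 and 26.5 CPM in Veh+Veh and at 2.46, 11.1, 44.2, 4.46 and 0 CPM in DHA+BTC. APLN differed by -2.47 ± 0.48 (adjusted p = 0.00348), least in experiment 3, with overlapping ranges, and was not called with the 3 shallowest libraries left out (adjusted p = 0.0555).

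Other genes among the largest falls belong to none of the lists. CPA4, a carboxypeptidase, stood at 24.3, 86.5, 95.7, 16.5 and 38.5 CPM in Veh+Veh and at 8.48, 22.1, 23.8, 1.78 and 0 CPM in DHA+BTC. CPA4 was lower in all pairs with overlapping ranges, and its difference was -2.65 ± 0.49 (adjusted p = 0.00203). GFRA1, the co-receptor for glial cell line-derived neurotrophic factor, stood at 28.9, 112, 74.7, 14.8 and 55.0 CPM in Veh+Veh and at 12.8, 46.4, 6.80, 3.57 and 1.61 CPM in DHA+BTC. The library of experiment 2 was highest in each group, and the difference was -2.37 ± 0.38 (adjusted p = 0.000507). MEST, an imprinted gene, stood at 48.5, 50.0, 22.6, 13.2 and 33.1 CPM in Veh+Veh and at 11.5, 17.5, 2.78, 0.891 and 0.803 CPM in DHA+BTC. All MEST pairs fell, with overlapping ranges. The difference in MEST was -2.65 ± 0.45 (adjusted p = 0.000808), and the call was lost with the 3 shallowest libraries left out (adjusted p = 0.051).

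BTC is known as a mitogen. Of 24 genes of mitosis and the spindle, 5 fell, 0 rose and 0 had a positive difference (median -0.73). Called falls numbered 4 after median-of-ratios scaling, 3 after quantile normalization, 4 in DESeq2, 0 in edgeR and 0 without the 3 shallowest libraries. The mitosis median was -0.63 with DHA alone, where 3 fell, and -0.09 with BTC alone, where 0 were called. Of 24 genes of DNA replication, 3 fell and 0 rose (median -0.51); the number that fell was 1 after median-of-ratios scaling, 1 in edgeR, 1 in DESeq2 and 0 without the 3 shallowest libraries. Of 14 G1 cyclins and inhibitors 1 rose and 1 fell, and 0 fell after median-of-ratios scaling, in edgeR and in DESeq2. MKI67, the nuclear marker of cycling cells, stood at 193, 402, 54.5, 45.4 and 112 CPM in Veh+Veh and at 160.2, 337, 49.2, 15.2 and 51.4 CPM in DHA+BTC. It was lower in every experiment with overlapping ranges and was not called at -0.66 ± 0.22 (adjusted p = 0.0995). Of 17 genes of the BCL2 family and apoptosis, 0 were called.

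The same 5 Veh+Veh libraries served as the reference for each agent alone, so the values below share libraries and are set side by side without a count of overlap. With DHA alone 233 genes were called (1.54%), 90 higher (0.595%) and 143 lower (0.945%). With BTC alone 0 genes were called in limma, although 1539 (10.2%) had an unadjusted p under 0.05; edgeR called 0 and DESeq2 1, with 1318 and 1606 genes at an unadjusted p under 0.05. The DESeq2 call, named after its values were seen, was RN7SL1, the RNA of the signal recognition particle, which has near-identical copies (adjusted p = 0.0255, and 0.445 in limma); its Veh+BTC libraries stood at 5.13, 14.0, 83.3, 5.00 and 4.57 CPM. Taken from the other side, DHA+BTC differed from Veh+BTC in 537 genes (3.55%), 164 higher (1.08%) and 373 lower (2.46%), and from DHA+Veh in 0 in limma, with 629 (4.16%) at an unadjusted p under 0.05. The count against DHA+Veh was also 0 in edgeR and in DESeq2, with 430 and 523 genes at an unadjusted p under 0.05. For ANGPTL4 the difference was 4.90 ± 0.45 with DHA alone, 0.35 ± 0.45 with BTC alone and 4.97 ± 0.45 with both. The order was the same for CXCL8, at 3.65 ± 0.64, -0.45 ± 0.64 and 3.90 ± 0.64. MMP1 gave 2.94 ± 0.39, 0.43 ± 0.39 and 3.12 ± 0.39, and GDF15 gave 1.87 ± 0.29, -0.11 ± 0.29 and 1.79 ± 0.29. In these rises the value with both agents lay close to that with DHA alone.

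Among the falls, several genes had negative differences with each agent. CCN2 differed by -1.53 ± 0.27 with DHA alone, -0.65 ± 0.27 with BTC alone and -2.48 ± 0.27 with both. MATN2 gave -2.10 ± 0.38, -0.94 ± 0.38 and -2.85 ± 0.38, and OXTR gave -1.93 ± 0.40, -1.14 ± 0.40 and -2.61 ± 0.40. For COL1A2 the values were -1.45 ± 0.42, -0.74 ± 0.42 and -2.32 ± 0.42. None of these BTC differences passed the adjusted threshold (adjusted p = 0.452 for CCN2, 0.452 for MATN2, 0.445 for OXTR and 0.552 for COL1A2). In experiment 2, CCN2, OXTR and COL1A2 were higher in Veh+BTC than in Veh+Veh (264 against 239, 128 against 84.0 and 73.2 against 52.7 CPM). COL1A2 was also higher in experiment 4 (19.5 against 11.3 CPM), whereas MATN2 was lower with BTC alone in every experiment. GAS6, a ligand of the receptor kinase AXL, was called with both agents, and its difference with BTC alone was larger in size than that with DHA alone. It stood at 214, 43.4, 286, 99.4 and 87.6 CPM in Veh+Veh, at 8.27, 108, 83.9, 129.7 and 6.43 CPM in Veh+BTC, at 48.9, 55.8, 118, 90.5 and 31.2 CPM in DHA+Veh and at 43.2, 12.7, 44.5, 51.3 and 18.5 CPM in DHA+BTC. Veh+BTC was lower than Veh+Veh in 3 of these 5 experiments and higher in experiments 2 and 4. The GAS6 differences were -1.64 ± 0.56 with BTC alone, -0.92 ± 0.56 with DHA alone and -1.95 ± 0.56 with both (adjusted p = 0.049). The last of these lost its call when any 1 of the 10 libraries other than DHA+BTC replicate 1 and Veh+Veh replicate 2 was left out (adjusted p = 0.0536 to 0.159), and also with the 3 shallowest libraries left out (adjusted p = 0.193) and without experiment 1, 3, 4 or 5 (adjusted p = 0.069, 0.232, 0.0837 and 0.109). The GAS6 call was also lost with no filter on low values (adjusted p = 0.157), with a pseudocount of 0.5 (adjusted p = 0.0509), after median-of-ratios scaling or quantile normalization (adjusted p = 0.0614 and 0.0625) and in edgeR (adjusted p = 0.0501).

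**Figure D5:**
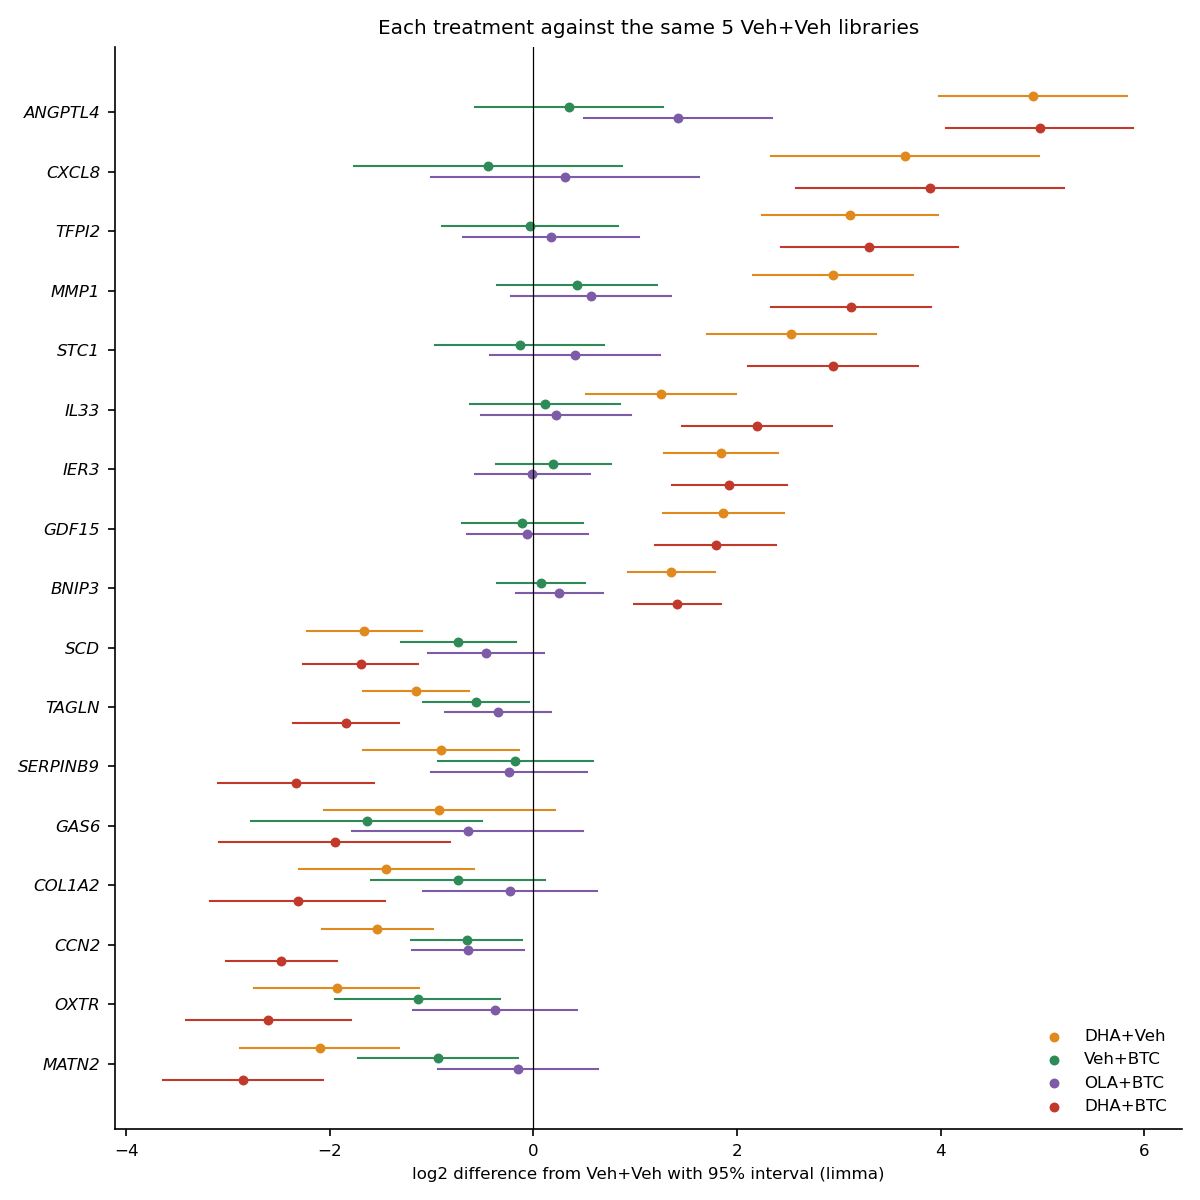
The points give the log2 difference from Veh+Veh (x axis) for genes named in the text (y axis) in DHA+Veh, Veh+BTC, OLA+BTC and DHA+BTC, and the lines give the 95% interval from limma. All 4 treatments share the 5 Veh+Veh libraries. For ANGPTL4 the points of DHA+Veh (4.90) and DHA+BTC (4.97) lie together, whereas for CCN2 they lie at -1.53 and -2.48.

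Whether the combined difference departed from the sum of the single differences was tested as the interaction of DHA and BTC. No gene was called: 0 in limma, 0 in edgeR and 0 in DESeq2, with 527 (3.48%), 428 and 501 genes at an unadjusted p under 0.05. Among the called genes, SERPINB9, an intracellular inhibitor of granzyme B, had 1 of the smallest interaction p-values. It stood at 10.2, 10.2, 17.9, 6.08 and 15.4 CPM in Veh+Veh, at 4.68, 12.9, 3.94, 4.50 and 4.55 CPM in DHA+Veh, at 7.70, 12.9, 10.6, 7.38 and 11.6 CPM in Veh+BTC and at 3.83, 3.78, 1.55, 0.446 and 0 CPM in DHA+BTC. DHA+BTC and Veh+Veh did not overlap for SERPINB9, whereas DHA+Veh and Veh+BTC did overlap Veh+Veh. The combined difference was -2.33 ± 0.37 (adjusted p = 0.000551), not called at equal depth (adjusted p = 0.0654), and the interaction was -1.25 ± 0.53 (unadjusted p = 0.0251, adjusted p = 0.983 in limma). OSR2, a zinc finger transcription factor, had an interaction of the other sign. It stood at 4.95, 7.42, 9.34, 4.56 and 6.56 CPM in Veh+Veh, at 3.40, 4.53, 1.82, 1.32 and 0 CPM in DHA+Veh, at 2.57, 3.50, 2.36, 1.19 and 1.45 CPM in Veh+BTC and at 1.91, 2.43, 0.619, 1.78 and 1.61 CPM in DHA+BTC. Each treatment left all 5 libraries of OSR2 below the lowest vehicle library, so that the single differences, -1.42 and -1.25, sum to a larger fall than the combined one, -1.51 ± 0.34. The interaction was 1.16 ± 0.48 (unadjusted p = 0.023, adjusted p = 0.983 in limma). OSR2 was called with both agents (adjusted p = 0.0118), but not without DHA+BTC replicate 3 (adjusted p = 0.0511), without experiment 3 or 4 (adjusted p = 0.143 and 0.0519), at equal depth (adjusted p = 0.0682) or with only the 10 libraries fitted (adjusted p = 0.0716). For ANGPTL4 the interval of the interaction was -1.58 to 1.02, for CCN2 -1.06 to 0.48 and for COL1A1 -0.64 to 0.66, so that departures within these intervals were not resolved.

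The other fatty acid gave a comparison at the same dose and times. Oleic acid is a shorter omega-9 acid with a single double bond. OLA+BTC against Veh+Veh gave 0 called genes in limma and 200 (1.32%) at an unadjusted p under 0.05, and 0 in edgeR and in DESeq2, with 166 and 250. DHA+BTC against OLA+BTC gave 261 called genes (1.72%), 92 higher (0.608%) and 169 lower (1.12%) with DHA; with only these 10 libraries in the fit the count was 5, and without the 3 shallowest libraries 28. After median-of-ratios scaling 126 of 207 were higher. Leaving out a single library gave 474 and 408 calls without DHA+BTC replicates 1 and 2, 134, 120 and 80 without DHA+BTC replicates 3, 4 and 5, and 93, 71 and 75 without OLA+BTC replicates 3, 4 and 5. For ANGPTL4, OLA+BTC stood at 12.3, 30.9, 4.87, 16.5 and 22.7 CPM in experiments 1 to 5. All of these libraries lay below all DHA+BTC libraries, and the difference was 3.55 ± 0.45 (adjusted p = 0.000121). ANGPTL4 in OLA+BTC differed from Veh+Veh by 1.42 ± 0.45 at an unadjusted p = 0.00365 (adjusted p = 1 in limma).

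TFPI2 stood at 278, 78.2, 21.7, 195 and 79.4 CPM in OLA+BTC. In experiments 1 and 4 these levels were above the lowest DHA+BTC library, and every pair was higher with DHA, by 3.13 ± 0.42 (adjusted p = 0.000216). STC1 differed by 2.53 ± 0.41 (adjusted p = 0.000782), and MMP1 by 2.55 ± 0.39 (adjusted p = 0.00037), the latter not called with only the 10 libraries fitted (adjusted p = 0.0582). MATN2 was lower with DHA+BTC than with OLA+BTC, at -2.69 ± 0.38 (adjusted p = 0.000246), and lost the call in that same fit (adjusted p = 0.0582). KIRREL3, an adhesion molecule of the immunoglobulin superfamily, stood at 4.03, 16.1, 24.0, 12.0 and 13.8 CPM in OLA+BTC, at 4.85, 12.9, 23.3, 8.90 and 11.7 CPM in Veh+Veh and at 1.37, 5.39, 6.80, 0.891 and 0 CPM in DHA+BTC. OLA+BTC and Veh+Veh held like ranges, and DHA+BTC was lower in every experiment. The KIRREL3 difference between the fatty acids was -2.17 ± 0.33 (adjusted p = 0.000448), not called with only the 10 libraries fitted (adjusted p = 0.114) or at equal depth (adjusted p = 0.0917). From Veh+Veh, KIRREL3 differed by -2.02 ± 0.33 with both agents (adjusted p = 0.000632).

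Some genes were not called between the fatty acids. PLIN2 differed by 0.86 ± 0.28 between DHA+BTC and OLA+BTC, with an interval of 0.29 to 1.43 (adjusted p = 0.11). Its OLA+BTC libraries stood at 164, 475, 98.5, 149 and 150 CPM in experiments 1 to 5. In experiment 2 OLA+BTC was above DHA+BTC (401 CPM), and in every other experiment PLIN2 was higher with DHA+BTC. CPT1A differed by 0.42 ± 0.21, with an interval of 0.00 to 0.85 (adjusted p = 0.315). EGFR differed by 0.27 ± 0.25, with an interval of -0.24 to 0.79 (adjusted p = 0.628). The intervals are 95% intervals from limma, not adjusted for the number of genes, and a p that missed the threshold does not show that the fatty acids acted alike.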

How the data were processed

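RNA of LX2 cells was made into 3′ messenger RNA libraries (QuantSeq forward kit, Illumina NextSeq), per the labels' protocols. STAR 2.5.3a and HTSeq 0.6.0 are named in the submitters' processing notes; the genome build, annotation and strand setting are not given in the sources used here. The deposited table holds CPM (counts per 1000000 reads), made by the authors, for 61597 genes in 30 libraries; 42084 IDs (68.3%) matched a symbol. Every value was a whole multiple of 1 read (100% within 0.01 of a read), so reads were recovered, and the totals were 1245182 to 9490142 (median 3683035); 3 reads stand for 2.41 CPM at the lowest depth and 0.316 CPM at the highest. Without a stated strand setting, reads of overlapping genes cannot be told apart; in RefSeq, MEST, OXTR, ERBB2, ACAT2, TIMP1, THBS1, ACTA2, TAGLN and BNIP3 overlap another protein-coding gene.

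Genes that reached 1 CPM in 5 or more libraries were fitted as log2(CPM + 1) with limma 3.58.1 (R 4.3.3; mean-dependent prior) over all 30 libraries, with group and experiment as terms, two-sided, adjusted by Benjamini-Hochberg over 15137 genes. The experiment number, given in the labels, pairs the libraries. Between DHA+BTC and Veh+Veh, deviations from the group mean correlated between same-numbered libraries at 0.277 to 0.686. Other pairs had a median of -0.169 and reached 0.433, above the values of experiments 3 (0.415) and 5 (0.277). Deviations from a group mean cancel out within the group, so a negative median of other pairs is partly built in. Alternatives were edgeR 4.0.16 and DESeq2 1.42.0 on the recovered reads, other pseudocounts, filters and scalings, equal depth, no block, and libraries or experiments left out. The scripts were tested on simulated data. Members, lists and the naming rule were chosen with earlier results of these data known. The rule took the 12 largest rises and falls with at least 5 CPM and 1 direction in 5 of 5 experiments, up to 5 members of each list by p-value, set receptor, collagen and cell cycle genes, the 5 smallest interaction p-values and the largest differences from OLA+BTC; genes whose call ended in many alternatives are counted and not named, apart from GAS6 and OSR2. A further gene that the rule takes is not reported here. Promoters came from RefSeq.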

Additional observations from a re-analysis of the deposited data

How the results depend on the processing

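The number of genes called between DHA+BTC and Veh+Veh, 440 as reported, was 232 with no filter on low values, 205 with only the groups compared in the fit with the replicate block, 266 in edgeR, 91 without the 3 shallowest libraries and 268 at equal depth. It ranged from 110 to 444 when an experiment was left out and from 178 to 819 when a single library was left out. Between DHA+BTC and OLA+BTC, 261 genes were called as reported, 95 with no filter, 5 with only the groups compared, 165 in edgeR, 28 without the 3 shallowest libraries and 154 at equal depth, 34 to 323 without an experiment and 71 to 474 without a library. With no replicate block the counts were 4 and 1. The interaction gave 0 calls in every alternative. Of the 440 genes, 85 kept the call without the 3 shallowest libraries, 107, 154 and 140 without experiments 3, 4 and 5, 173 with only the groups compared in the fit, 241 at equal depth, 221 in edgeR, 302 in DESeq2, 313 after median-of-ratios scaling, 275 after quantile normalization and 4 with no replicate block. The genes named above were chosen in part for keeping their calls, so no count over them is given. The difference in EGFR, which was not called, ran from -0.21 without experiment 2 and reversed to 0.0045 at a pseudocount of 5, 0.12 after median-of-ratios scaling, 0.16 after quantile normalization, 0.15 in edgeR, 0.20 in DESeq2, 0.11 without the 3 shallowest libraries, 0.15 at equal depth and 0.25 without experiment 4, and to 0.0085 to 0.21 when DHA+BTC replicate 4, Veh+Veh replicate 1 (0.0085) or Veh+Veh replicate 4 (0.055) was left out. The cause of these changes was not tested. Depth also limits low levels: in the smallest library a level under 2.41 CPM rests on fewer than 3 reads.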
